A study of Mus musculus with 4 samples.

Results

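Early growth response (EGR) and NR4A transcription factors were examined in group 3 innate lymphoid cells (ILC3s), lymphocytes without antigen receptors that produce IL-22 at mucosal surfaces. The set has 8 genes of the 24343 in the table: the zinc finger factors Egr1, Egr2 and Egr3, their corepressors Nab1 and Nab2, and the orphan nuclear receptors Nr4a1, Nr4a2 and Nr4a3. The members were chosen by name, with earlier results of these data known, and the deposited transcript rows of each gene were summed. Libraries came from mouse cells that were stimulated with TL1A (2 libraries) or kept in medium (2 libraries). TL1A, the ligand of the receptor DR3, is a cytokine of the TNF superfamily. All 4 libraries were from the genotype IL23R-GFP/WT, in which a GFP reporter occupies 1 copy of the IL-23 receptor locus, and the cells of both groups had been sorted for GFP and CD127 and against lineage markers. The sources used here do not give the age of the mice, the TL1A dose or the time of stimulation. Whether the 2 libraries of a group are separate animals or cultures is not stated in the labels. The p-values therefore cover only the spread between these libraries, which could be technical.

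EGR and NR4A genes are immediate early genes, transcribed within minutes of many receptor signals without new protein synthesis. Their promoters are classically reached through serum response factor and its ETS partners downstream of ERK, through CREB, and, for NR4A genes, through MEF2 and calcium signals. EGR proteins bind a GC-rich element through 3 zinc fingers, and NAB1 and NAB2 bind EGR proteins and repress the transcription they drive; Nab2 is itself an EGR target. In T cells, EGR2, EGR3 and the NR4A receptors are known for restraining activation and for roles in anergy, tolerance and exhaustion.

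The promoter sequences of Egr2 and Nr4a1, which were higher with TL1A, are shown because they hold elements through which such signals classically act. The sequences are the 250 bases before the transcription start in the RefSeq promoter table (build GRCm38.p6), 5′ to 3′ on the gene's strand. Egr2 is shown for chr10:67537619-67537868 (plus strand) and Nr4a1 for chr15:101266596-101266845 (plus strand). Neither stretch overlaps an exon of its gene in the GENCODE M21 annotation. Capitals mark every match found to the searched motifs.

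Egr2: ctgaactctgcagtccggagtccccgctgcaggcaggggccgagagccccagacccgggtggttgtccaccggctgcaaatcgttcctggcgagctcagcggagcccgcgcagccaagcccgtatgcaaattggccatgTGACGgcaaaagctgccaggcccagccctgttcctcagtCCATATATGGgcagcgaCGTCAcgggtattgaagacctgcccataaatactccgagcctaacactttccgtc
Nr4a1: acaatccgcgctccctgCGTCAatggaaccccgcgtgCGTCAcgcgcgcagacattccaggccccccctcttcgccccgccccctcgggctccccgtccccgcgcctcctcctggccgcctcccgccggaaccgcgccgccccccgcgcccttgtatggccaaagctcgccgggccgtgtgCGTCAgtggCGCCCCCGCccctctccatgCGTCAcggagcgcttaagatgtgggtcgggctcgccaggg

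The capitals in Egr2 are 2 copies of TGACG, the core of the cAMP response element, at 111 to 107 and, on the other strand, at 55 to 51 bases before the start, and between them a CArG box, the serum response factor element, at 72 to 63 bases before the start. Those in Nr4a1 are 4 copies of TGACG on the other strand (read as CGTCA) and 1 EGR site, GCGNGGGCG, on the other strand at 60 to 52 bases before the start. Both strands were searched, and the other motifs were the full element TGACGTCA (which contains TGACG), the NR4A element AAAGGTCA, the AP-1 element TGANTCA and the κB site. Of 32851 windows of the same length in the table, 17.8% held TGACG, 1.47% a CArG box, 4.7% an EGR site, 7.25% a κB site, 6.75% TGANTCA, 1.55% TGACGTCA and 1.34% AAAGGTCA. The κB letters are not in these 2 windows. The table holds 5 windows for Egr2, of which the printed one is at the start of the deposited row NM_010118. The farthest upstream one, chr10:67535249-67535498, has 2 overlapping κB matches, and the one at chr10:67537316-67537565 has a CArG box. Nab1 has 3 EGR sites, 1 κB match and 1 copy of TGACG in its window on chromosome 1 (minus strand). The EGR sites are shown with 10 bases on either side because they are the element that the members themselves bind, and because 231 of the 250 bases of that window lie in annotated Nab1 exons. The capitals mark the 9 bases of each site, the first on the other strand.

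Nab1, chr1:52500571-52500599: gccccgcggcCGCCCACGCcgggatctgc
Nab1, chr1:52500539-52500567: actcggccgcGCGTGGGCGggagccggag
Nab1, chr1:52500468-52500496: gcggggcgggGCGGGGGCGgcggaggtgg

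Of the 8 members, 6 had a window in that table. The Nr4a2 window held 4 copies of TGACG and 1 EGR site, and the Nr4a3 window held 4 copies of TGACG. A match is a description of the letters, and no binding was measured.

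Only part of the members could be counted, depending on their deposited rows. The counts are per RefSeq transcript, so reads from an exon that belongs to more than 1 row were ambiguous and not assigned. Egr1, Egr2, Nab1, Nr4a1 and Nr4a3 each have 1 row, whose exon bases (2477 to 5720 in the matching GENCODE M21 models) belong to no other deposited row. Egr3 has 3 rows and only 164 bases that belong to a single row, with both longer rows matching the same model. Nab2 has 2 rows and 270 such bases, and its last exon also overlaps a row of Stat6 by 40 bases. Nr4a2 has 2 rows and 496 such bases. These models are of another build than the mm9 counts, so the lengths are approximate.

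**Figure D1:**
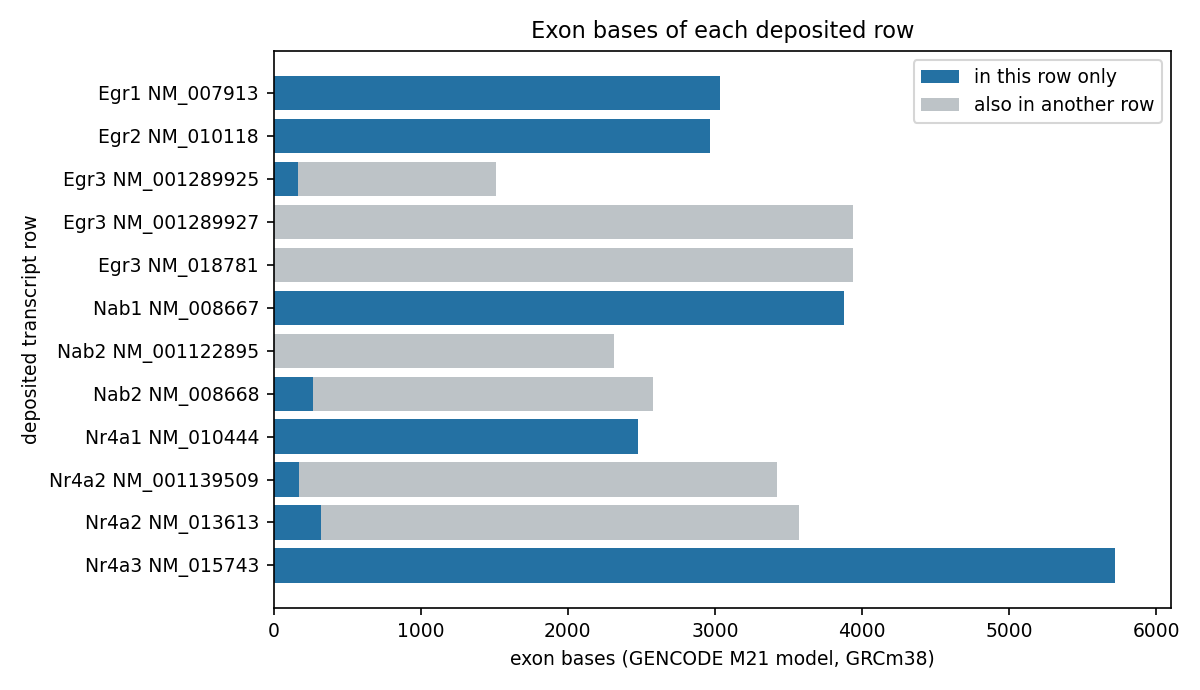
Exon bases of each deposited row of the 8 members (x axis) in the matching GENCODE M21 model, divided into bases found in that row only and bases also found in another row. The rows of Egr3, Nab2 and Nr4a2 are almost wholly shared, while those of Egr1, Egr2, Nab1, Nr4a1 and Nr4a3 are not shared.

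TL1A stimulation was accompanied by higher Egr2, Nab1 and Nr4a1 and lower Egr1. Of the 8 members, 4 had enough reads to be tested. Of these, 3 were higher and 1 was lower with TL1A (edgeR quasi-likelihood test, Benjamini-Hochberg adjusted p under 0.05 over 9852 genes). Among all genes tested, 42.3% passed in either direction, 20.6% as higher and 21.7% as lower, so the number of members called is not by itself a result. The groups did not overlap for any of the 4, as for 72.2% of all genes tested. Levels are given as CPM, the reads of a gene relative to its library's TMM-scaled total, as mean ± SD of 2 libraries. In bulk RNA, a change in the number of cells that carry a transcript and a change in transcript per cell cannot be told apart.

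Egr2, a zinc finger factor that restrains activation in T cells and drives PLZF in NKT cells, had 5548 and 5579 reads in the TL1A libraries, against 31 and 49 reads in the medium libraries. Both TL1A libraries were far above both medium libraries. Its level averaged 499 ± 24.8 CPM with TL1A and 3.07 ± 0.85 CPM in medium (SD, n = 2 each), giving a log2 fold change with TL1A of 7.33 ± 0.15 (SE, from edgeR; adjusted p = 1.66e-07). That fold change ranked 32 of the 9852 genes tested. By mean CPM, which is not corrected for transcript length, Egr2 ranked 375 with TL1A and 7997 in medium.

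Egr1, the founding EGR member and in many cells the first to be induced by growth factor and stress signals, had 10 and 12 reads in the TL1A libraries and 42 and 41 reads in the medium libraries. It was low in all 4 libraries and lower in both TL1A libraries. It averaged 0.982 ± 0.0739 CPM with TL1A and 3.21 ± 0.193 CPM in medium (SD, n = 2 each), giving a log2 fold change with TL1A of -1.69 ± 0.40 (SE, from edgeR; adjusted p = 0.0126). This call was lost with DESeq2 (adjusted p = 0.0724), without medium replicate 1 (adjusted p = 0.0586) and without TL1A replicate 1 (adjusted p = 0.0591), with log2 fold changes of -1.68, -1.64 and -1.62.

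Egr1 and Egr2 moved apart. The ratio of Egr2 to Egr1 reads, which does not depend on library scaling, was 554.8 and 464.9 in the TL1A libraries and 0.738 and 1.195 in the medium libraries. The TL1A ratios rest on only 10 and 12 Egr1 reads and are imprecise. Egr2 made up 99.8% of the reads of this gene pair in each TL1A library, against 42.5% and 54.4% in the medium libraries. The mean log2 ratio was 8.99 with TL1A and -0.09 in medium, a difference of 9.08. Most of this difference came from Egr2, with a log2 fold change of 7.33, against -1.69 for Egr1. An exact two-sided permutation test of 2 against 2 libraries gave p = 0.333, the smallest p this design allows.

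Nab1, a corepressor that binds EGR proteins, had 1132 and 1360 reads in the TL1A libraries and 528 and 500 reads in the medium libraries. Both TL1A values were more than double either medium value. Nab1 averaged 111 ± 8.46 CPM with TL1A and 39.7 ± 3.25 CPM in medium (SD, n = 2 each), a 2.8-fold difference (log2 fold change 1.49, SE 0.12, edgeR adjusted p = 6.22e-05). Its paralog Nab2 had 0 and 1 reads in the TL1A libraries and 1 read in each medium library. With so few countable bases this does not measure Nab2, and no fold is given.

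Nr4a1 encodes Nur77, a ligand-independent nuclear receptor widely used as a reporter of antigen receptor signalling. It had 984 and 1035 reads in the TL1A libraries and 727 and 731 reads in the medium libraries. The libraries of each group lay close together, and the groups did not overlap. Nr4a1 averaged 90.4 ± 1.62 CPM with TL1A and 56.3 ± 2.22 CPM in medium (SD, n = 2 each), a 1.6-fold difference (log2 fold change 0.68, SE 0.10, edgeR adjusted p = 0.00155).

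Nr4a3, which encodes NOR-1, had 0 reads in both TL1A libraries and 0 and 9 reads in the medium libraries. All of its reads were therefore in medium replicate 2, where they made 0.674 CPM. With 3 counts as the limit of a count of 0 (counting error only), levels of up to 0.279 and 0.259 CPM, on the same TMM scale, remain possible for the TL1A libraries. A difference in Nr4a3 was not detectable at this depth. Unlike Egr3 and Nr4a2, Nr4a3 has a row shared with no other, so reads on it could be assigned. Egr3 and Nr4a2 (which encodes Nurr1) had 0 reads in all 4 libraries, and their shared exons were not counted, so no level is given for either.

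**Figure D2:**
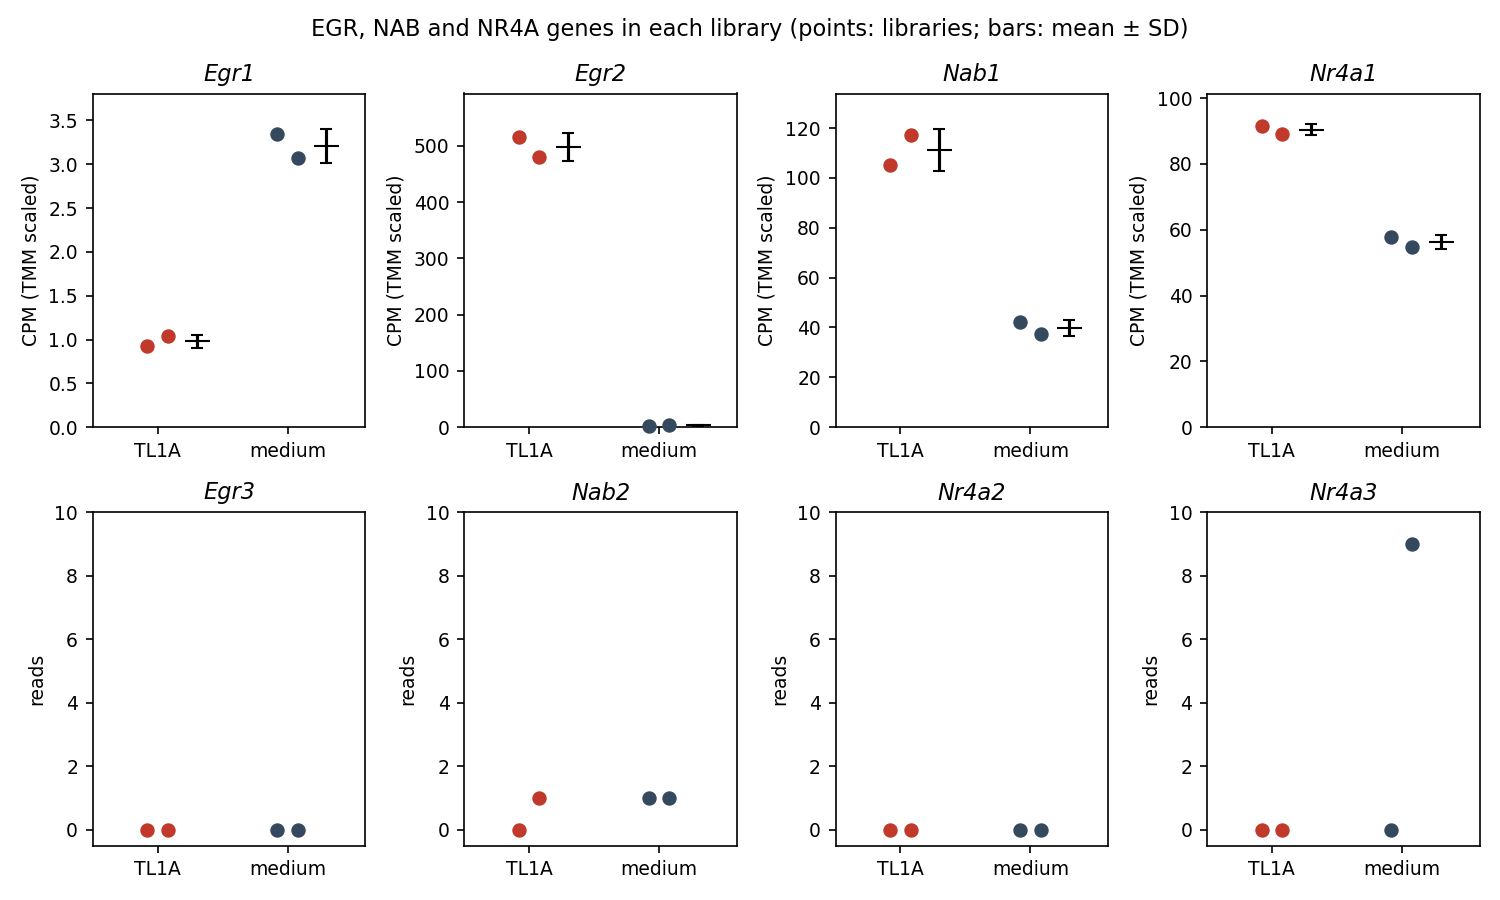
Each library's value for the 8 members, with the 2 TL1A libraries left of the 2 medium libraries. The upper panels give CPM on linear axes from 0 with mean ± SD of 2 libraries: Egr1 averaged 0.982 with TL1A and 3.21 in medium, Egr2 499 with TL1A and 3.07 in medium, Nab1 111 with TL1A and 39.7 in medium, and Nr4a1 90.4 with TL1A and 56.3 in medium. The lower panels give raw reads of the members too low to be tested, where the highest value is the 9 reads of Nr4a3 in medium replicate 2.

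Per kilobase of exon, the order of the tested members differed between the groups. With TL1A, Egr2 was highest at 168 ± 8.35 CPM per kilobase (SD, n = 2), followed by Nr4a1 at 36.5 ± 0.652, Nab1 at 28.7 ± 2.19 and Egr1 at 0.324 ± 0.0243 CPM per kilobase. The libraries of neighbours in that order did not overlap. In medium, Nr4a1 was highest at 22.7 ± 0.896 CPM per kilobase, followed by Nab1 at 10.3 ± 0.839. Egr1 at 1.06 ± 0.0637 and Egr2 at 1.04 ± 0.287 CPM per kilobase overlapped in medium and did not differ beyond their spread. Levels were not compared for the other members, whose reads could not be set against a length or were nearly absent.

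**Figure D3:**
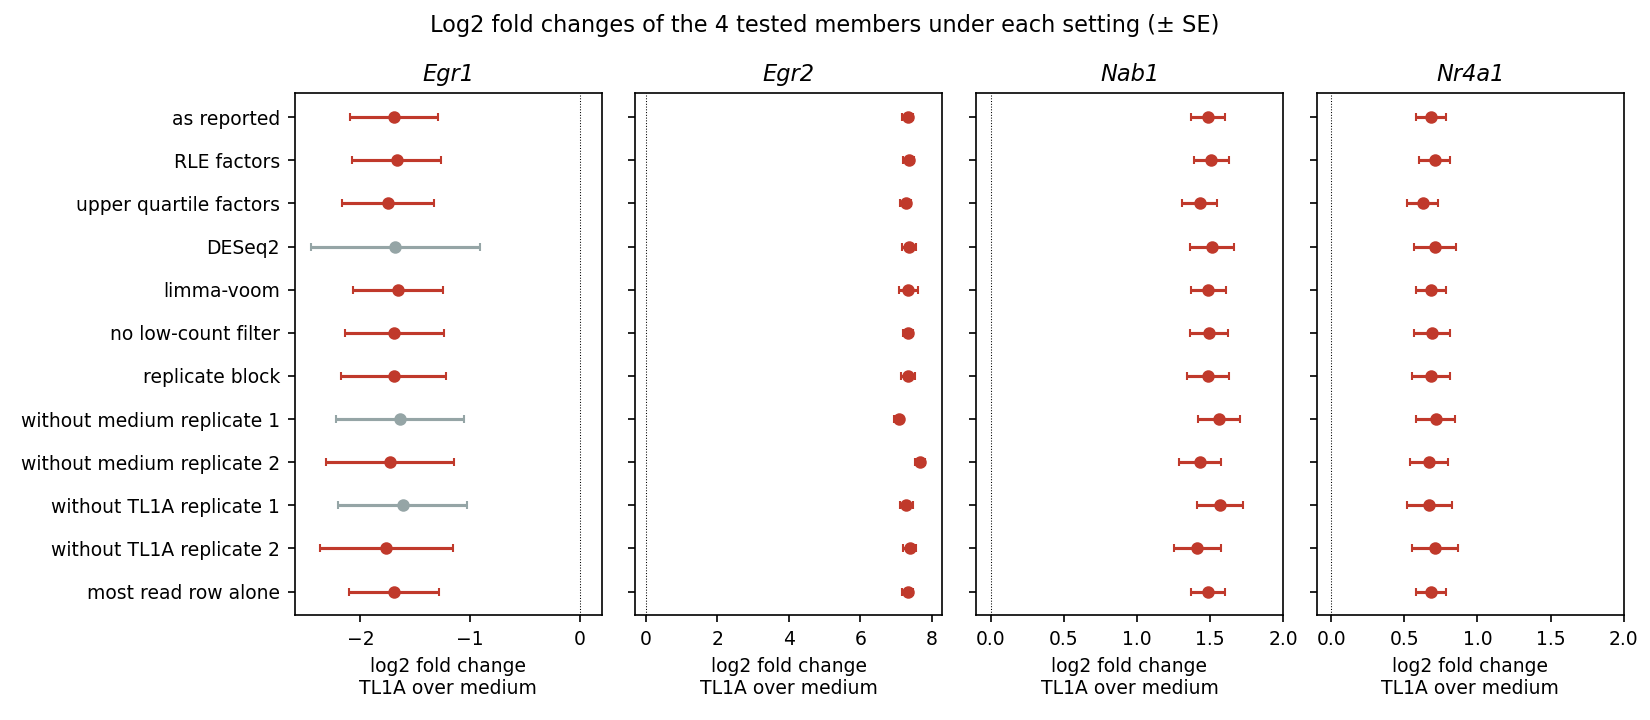
Log2 fold change of TL1A over medium ± SE (x axis) for the 4 tested members as reported and under each alternative (y axis), in red where the adjusted p was under 0.05 and in grey where it was not. Egr2 lies between 7.07 and 7.68 throughout, and the grey points are the 3 settings in which Egr1 did not pass.

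The genes with the most similar pattern were those with the smallest Euclidean distance in log2 CPM (prior count 2), centred on the gene mean over the 4 libraries. With 2 conditions this measure mostly reads the size of the difference, which the prior count shrinks for genes with few reads. For Egr2 they were Cxcl16 (distance 0.36), which encodes the ligand of CXCR6, Olfr175 (0.391), annotated as an olfactory receptor gene, and Adamts14 (0.537), which encodes an extracellular protease. Cxcl16 had 378 and 419 CPM in the TL1A libraries and 2.55 and 2.92 CPM in the medium libraries. Olfr175 had 63.34 and 64.15 CPM with TL1A and 0.0796 and 0.2996 CPM in medium. Adamts14 had 20.4 and 19.4 CPM with TL1A and 0 CPM in both medium libraries. For Egr1 they were Cited2 (0.0546), Ptpre (0.0588) and Zfp57 (0.0607). For Nab1 they were Raph1 (0.055), Lpcat1 (0.0643) and Stard4 (0.0899), and for Nr4a1 they were Ifnar1 (0.0297), Sppl2a (0.0392) and Tmem168 (0.0405).

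Genes of the pathways that classically drive EGR and NR4A transcription included called genes in both directions. Of 18 tested genes in this list of 28, 4 were higher, 2 were lower and 12 did not pass, a called share of 33.3% beside 42.3% of all genes tested. The median log2 fold change was 0.06, against -0.03 for all genes tested. Elk3, an ETS partner of serum response factor, rose by 0.99 ± 0.12 on the log2 scale (SE; adjusted p = 0.000478, edgeR), and Map2k1, which encodes the ERK kinase MEK1, rose by 0.69 (SE 0.11). Mef2c, of the MEF2 family that acts on Nr4a1 in T cells, had 82 and 61 reads in the TL1A libraries and 390 and 382 reads in the medium libraries, and fell by 2.21 on the log2 scale (SE 0.21, adjusted p = 0.000163). Nfatc3, a calcium-regulated factor, fell by 0.77 (SE 0.09). The other called genes were Rps6ka3, at 0.25, and the calcineurin subunit gene Ppp3r1, at 0.34, both named because the count is small. Both calls were lost with upper quartile factors, with replicate numbers as a block (adjusted p = 0.112 for Rps6ka3 and 0.103 for Ppp3r1), without medium replicate 1 and without either TL1A replicate. The Ppp3r1 call was also lost with DESeq2, with no filter and without medium replicate 2. The number of listed genes that were higher was 2 when either TL1A replicate was left out. The coactivator gene Crebbp (SE 0.08) and the calcineurin gene Ppp3cb (SE 0.13) had log2 fold changes of -0.0011 and 0.0039. Nfatc1 and Nfatc2 had 0 reads in every library, and both have several rows.

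Among partners and cofactors of EGR and NR4A proteins, 10 of 16 were tested, of which 1 was higher, 4 were lower and 5 did not pass, with a median log2 fold change of -0.28. Their called share was 50%, beside 42.3% of all genes tested. Cited2, whose product binds the coactivators CBP and p300, fell by 1.55 (SE 0.13, edgeR adjusted p = 9.21e-05), and Kdm1a, which encodes the histone demethylase LSD1, fell by 1.06 (SE 0.09). Chd4, which encodes a NuRD subunit bound by NAB2, rose by 0.49 (SE 0.10), and the deacetylase gene Hdac3 fell by 0.42 (SE 0.09). Rcor1, named because the count is small, had a log2 fold change of -0.35, and its call was lost when any 1 of the 4 libraries was left out, with replicate numbers as a block (adjusted p = 0.0731) and with DESeq2 (adjusted p = 0.0637). The Hdac3 call was lost without TL1A replicate 1 (adjusted p = 0.0637), which left 2 genes lower, and without medium replicate 2 the number higher was 3, with Hdac2 and Trim28 added. Hdac1 and Trim28 had log2 fold changes of 0.21 (SE 0.10) and 0.28 (SE 0.13). The paralog Egr4 had 0 reads in every library, as did Rxra and Rxrb, which encode NR4A dimer partners and have several rows each.

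Other immediate early genes moved in both directions. Of 31 tested genes in this list of 38, 15 were higher, 5 were lower and 11 did not pass, with a median log2 fold change of 0.73. The called share was 64.5%, beside 42.3% of all genes tested. Gadd45b, a stress gene also induced by NF-κB, rose by 4.57 ± 0.09 on the log2 scale (SE; adjusted p = 1.55e-07, edgeR), and Ier3 rose by 3.39 (SE 0.15). The activation marker gene Cd69 had 7587 and 8083 reads in the TL1A libraries, against 2372 and 2765 reads in the medium libraries, and rose by 1.82 (SE 0.07). Rgs2, a regulator of G protein signalling, had 94 and 103 reads in the TL1A libraries and 1839 and 1818 reads in the medium libraries, a log2 fold change of -4.0 (SE 0.12). The other genes that fell, named because the count is small, were Gadd45a (-3.14), Fos (-2.13), Zfp36 (-1.96) and Klf10 (-1.18, all log2 fold changes). Fos, an AP-1 subunit gene, had 38 and 20 reads in the TL1A libraries and 107 and 192 reads in the medium libraries, and without TL1A replicate 1 it was at -2.72. Btg2 and Mcl1 had log2 fold changes of -0.04 (SE 0.07) and -0.02 (SE 0.09). Jund, Myc, Per1 and Arc had 0 reads in every library, but each has several rows, so their absence was not measured.

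Genes described elsewhere as EGR targets in lymphocytes also had no single direction: 12 of 25 were tested, of which 6 were higher, 3 were lower and 3 did not pass (median log2 fold change 0.82). This was a called share of 75%, beside 42.3% of all genes tested. Cblb, an E3 ligase gene that EGR2 and EGR3 raise in anergic T cells, had 1595 and 1837 reads in the TL1A libraries, against 992 and 998 reads in the medium libraries, and rose by 0.997 on the log2 scale (SE 0.09; adjusted p = 0.000134, edgeR). Ccl1, a chemokine gene, had 187 and 203 reads in the TL1A libraries and 2 reads in each medium library (adjusted p = 6.57e-06). Zbtb16, which encodes PLZF, had 83 and 46 reads in the TL1A libraries and 574 and 657 reads in the medium libraries, and fell by 3.03 (SE 0.27). Nrgn fell by 1.95 (SE 0.14) and Dgka, a diacylglycerol kinase gene, by 1.80. Socs3 and Trp53 had log2 fold changes of 0.18 (SE 0.28) and 0.38 (SE 0.33). Another 5 listed genes, among them Fasl and Nfatc1, have several rows and had 0 reads in every library.

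Of the genes described as NR4A targets in T cells, 13 of 21 were tested, of which 4 were higher, 8 were lower and 1 did not pass (median log2 fold change -1.15). The share called was 92.3%, beside 42.3% of all genes tested. Pdcd1, which encodes the inhibitory receptor PD-1, had 985 and 902 reads in the TL1A libraries and 5809 and 6534 reads in the medium libraries, and fell by 2.49 (SE 0.10, edgeR adjusted p = 1.96e-06). Ikzf2, which encodes Helios, fell by 1.89 (SE 0.09). The IL-2 receptor gene Il2ra rose by 2.15 (SE 0.06) and Batf, an AP-1 family gene, by 1.67 (SE 0.08), and the other genes that were higher, named because the count is small, were Havcr2 (log2 fold change 2.29) and Irf4 (4.82; 5.43 without medium replicate 1). Tox2 fell by 1.71 on the log2 scale (SE 0.56), but its call was lost with DESeq2, without medium replicate 1 (-1.22, adjusted p = 0.191) and without TL1A replicate 2 (-1.07, adjusted p = 0.133), while the value was -2.76 without TL1A replicate 1. Gata3 had a log2 fold change of -0.21 (SE 0.09). Both target lists come from general knowledge of other lymphocytes, and regulation by the members was not measured here. The counts and medians of both lists ignore the direction expected of each gene and do not measure activity of the members.

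**Figure D4:**
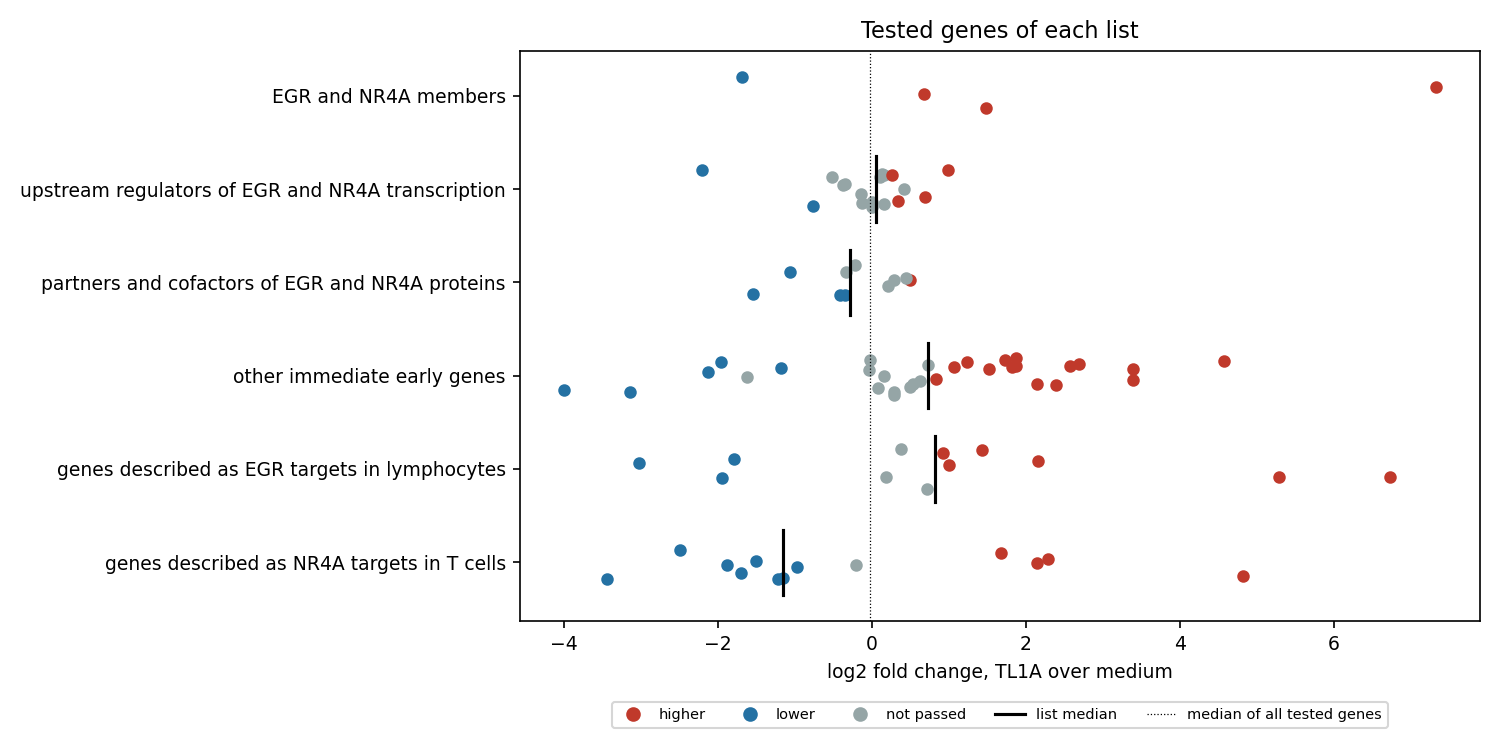
Log2 fold change of TL1A over medium (x axis) for each tested gene of the member set and of 5 related lists (y axis), coloured by whether it was higher, lower or did not pass. Black bars mark the list medians, from -1.15 for the NR4A target list to 0.82 for the EGR target list, and the dotted line marks the median of all tested genes at -0.03. Egr2 lies at 7.33.

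The libraries held 11849977 and 12605164 assigned reads for TL1A and 11495636 and 12222552 for medium. The ILC3 markers Il7r, Il23r and Il22 were read in every library, and of 15 tested ILC3 markers 5 were higher and 8 lower. Markers of other cells moved in several directions, and their part in the changes of the members was not tested. In several lists 1 gene, named here after its values were seen, made up most of the difference in the sum. Myeloid markers, of which 3 of 10 tested were higher and 3 lower, summed to 816 and 800.3 CPM with TL1A and 1660 and 1843 CPM in medium. Without Fcer1g the sums were 114 and 122 CPM with TL1A and 99.8 and 124 CPM in medium. The B cell markers Blk and Cd79b were higher, at a list sum of 849 and 777 CPM with TL1A and 154 and 167 CPM in medium, while the defining markers Pax5 and Ms4a1 were at 0 in all 4 libraries. T cell markers, of which 2 of 6 tested were lower and none was higher, summed to 213 and 207 CPM with TL1A and 499.5 and 515 CPM in medium. Without Cd4, which some ILC3s also carry, the sums were 107 and 122 CPM with TL1A and 143 and 127 CPM in medium. Of 9 mast cell and basophil markers, Cpa3 was lower (2 and 0 reads with TL1A, 212 and 314 in medium) and the other 8 had 0 reads. Among those 8, Ms4a2 has 4 rows, so its absence was not measured. ILC1 and NK cell markers, of which 2 of 5 tested were higher and 2 lower, summed to 466 and 441 CPM with TL1A and 31.6 and 26.3 CPM in medium. Without Ncr1 the sums were 24.1 and 18.7 CPM with TL1A and 16.6 and 10.3 CPM in medium. Itgam, S100a9, Cd8a, Eomes and Klra8 were at 0 in all libraries, but each has 2 rows, so that their shared exons were not counted and their absence was not measured. ILC2 markers, with 1 of 8 tested higher and 3 lower, summed to 173 and 161 CPM with TL1A and 90.4 and 105 CPM in medium. Without Klrg1 the sums were 34.5 and 30 CPM with TL1A and 63 and 77.4 CPM in medium. Epithelial and stromal markers, with 1 of 3 tested lower, summed to 4.84 and 5.09 CPM with TL1A and 13.9 and 7.64 CPM in medium.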

How the data were processed

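RNA-seq counts from 4 libraries of sorted mouse ILC3s, 2 with TL1A and 2 in medium, were used. The SMARTer Ultra Low Input kit was used for cDNA, per the labels' protocols. Per the submitters' processing notes, CASAVA, STAR and HTSeq were used with mm9, and their versions, the strand setting and the annotation release are not stated in what was used here. The deposited table holds raw counts per RefSeq transcript, per the file headers and the values. Summary rows that name no gene held 69.9% to 71.3% of each column and were left out. Of 33535 rows, 33154 matched a symbol in a RefSeq gene table of GRCm38.p6, used for names only, and rows were summed per gene. Of assigned plus ambiguous reads, 33.7% to 34% were ambiguous.

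Tests used R 4.3.3 and edgeR 4.0.16 (TMM, a filterByExpr minimum of 10, the quasi-likelihood functions glmQLFit and glmQLFTest with group alone, two-sided, Benjamini-Hochberg adjusted p under 0.05). SE is the size of the log2 fold change over the square root of F. Alternatives were RLE and upper quartile factors, DESeq2 1.42.0, limma-voom (limma 3.58.1), no filter, a replicate block, leaving out each library, and the most read row of each gene alone. The members, gene lists and tests were chosen with earlier results of these data known. Named genes were the members, up to 4 genes per list with the smallest p and 2 with the largest, and the 3 nearest patterns per called member; others are said to be named for small counts, and genes such as Dgka, Il7r, Hdac2 and the marker genes were named after their values were seen. The comparison of rows within a gene was not made, as no member had 2 rows with reads past the filter. The libraries of a group differed beyond counting noise (chi-square over its degrees of freedom 7.98 for TL1A, 12.3 for medium). Some listed genes are not reported here by name.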

Additional observations from a re-analysis of the deposited data

How the results depend on the processing

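Egr2, Nab1 and Nr4a1 kept their direction and their call under all 11 alternatives, with log2 fold changes of 7.07 to 7.68, 1.42 to 1.57 and 0.63 to 0.72. Egr1 kept its direction under all 11 and its call under 8. The exceptions were DESeq2 (-1.68, adjusted p = 0.0724) and 2 of the 4 single-library omissions. Over all 4 omissions the log2 fold change of Egr1 ran from -1.76 to -1.62. The cause of the lost calls was not tested. Among the 11 alternatives, the most read row alone left the reads of the tested members unchanged, since each has a single row. Its agreement for these members was therefore fixed in advance. The 10 to 42 reads of Egr1 per library are the fewest of the tested members. The replicate numbers in the titles are not said to pair the libraries, and same-numbered libraries had deviations from their group means that correlated at -0.10. With the number as a replicate block, 3542 genes were called, against 4168 without it, and 4 members in both, with log2 fold changes of -1.69 for Egr1, 7.34 for Egr2, 1.49 for Nab1 and 0.68 for Nr4a1. With crossed numbers, chosen after seeing the data, 4734 genes and 4 members were called. Over all alternatives the number of genes called ran from 3250 to 4734. Of 100 list counts under an alternative, 94 were within 1.5 times the reported one. The number of genes higher among upstream regulators was 2 with upper quartile factors or the block. Leaving out a library moved the difference in the log2 Egr2 to Egr1 ratio between 8.73 and 9.43. Reads shared between rows limit Egr3, Nab2 and Nr4a2, and depth limits Nr4a3.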
